A study of Homo sapiens with 8 samples.

Results

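The 49 genes described here encode the heavy and light chains of myosin. They were chosen by gene symbol among the protein-coding genes of 2 count tables that together list 60664 gene identifiers. A symbol had to be that of a MYH, MYO or MYL gene followed by a number, which 52 genes met, and the gene had to hold at least 20 counts summed over 8 libraries. MYH6, MYH7 and MYL7 held 9, 10 and 15 counts and were left out. Of the 49 members, 37 encode heavy chains (12 MYH and 25 MYO genes) and 12 encode light chains (5 essential and 7 regulatory).

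The libraries come from selective ribosome profiling, in which mRNA fragments protected by ribosomes (RPFs) are sequenced from all ribosomes and, in parallel, from those recovered through a chaperone on the nascent chain. The cells were U-2 OS, a human osteosarcoma line, with a HaloTag placed by genome editing either in CCT4, a subunit of the chaperonin TRiC, or in PFDN4, a subunit of prefoldin (PFD). Each line is 1 clone. All cells of both lines received cycloheximide at 100 µg/ml for 1 min and the crosslinker DSP at 2 mM for 30 min, so inputs and pulldowns share both treatments. The 4 groups were input and pulldown of the TRiC line and input and pulldown of the PFD line, with 2 biological replicates each, and an untagged line is not among them. Pulldown was compared with input within each line to ask which nascent chains were held by ribosomes that carry the chaperone.

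A myosin heavy chain has a motor domain that hydrolyses ATP on actin, a neck that binds light chains, and a tail. In myosin II the tails of a pair of heavy chains form a coiled coil that assembles into filaments, and each neck carries an essential and a regulatory light chain. The sarcomeric heavy chains work in striated muscle, the non-muscle ones MYH9, MYH10 and MYH14 contract the cortex and stress fibres of most cells, and the MYO genes encode unconventional myosins that move or tether membranes, organelles and actin bundles. The myosin motor is a known client of dedicated chaperones of the UCS family (UNC45A and UNC45B) and of TRiC.

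The sarcomeric heavy chain genes resemble each other closely, and MYH1, MYH2, MYH3, MYH4, MYH8 and MYH13 lie side by side on chromosome 17. This matters for counting, because the authors kept reads that aligned to 1 place. The coding sequence of the P-loop, the motif of the motor domain that binds the phosphates of ATP, shows the resemblance. The 30 bases from its first codon were read from hg38 with GENCODE 44 coding exons, and capitals mark bases that are unlike MYH13.
MYH13, chr17:10360041-10360070, minus strand: ggagaatccggggctgggaagactgtgaac
MYH3, chr17:10649655-10649684, minus strand: ggagaatccggggcAggAaagactgtgaac
MYH1, chr17:10514094-10514123, minus strand: ggagaatcTggCgcAgggaagactgtgaac
MYH2, chr17:10543986-10544015, minus strand: ggagaatcTggTgcAgggaagactgtgaac
MYH4, chr17:10464556-10464585, minus strand: ggagaatcTggTgcAgggaagactgtgaac
MYH8, chr17:10415550-10415579, minus strand: ggagaatcTggTgcCggAaagactgtgaac
MYH15, chr3:108498115-108498144, minus strand: ggagaatcTggTgctggAaagactgtgaac
MYH7B, chr20:34982460-34982489, plus strand: ggagaGtcGggggcCggTaagacGgtTaac
MYH9, chr22:36326631-36326660, minus strand: ggTgaatcTggAgctggCaagacGgAgaac
MYH3 was unlike MYH13 at 2 of the 30 bases, MYH1, MYH2, MYH4 and MYH15 at 3, MYH8 at 4, and MYH7B and MYH9 at 6. Over whole coding sequences, windows of 28 bases were looked up on the 25 primary chromosomes of hg38. For MYH1 34.9% of the windows occurred elsewhere too, for MYH2 31.2%, for MYH4 25.7%, for MYH8 18.8%, for MYH13 14.4% and for MYH3 10.6%. For MYH7B the share was 0.966%, for MYH9 2.32% and for MYH15 0%. Of the 833 shared windows of MYH13, 414 occurred in MYH4 and 376 in MYH8. Among light chains, MYL12B (57.3%), MYL12A (47.5%) and MYL6 (29.1%) shared most, with each other or with processed pseudogenes. RPFs inside such windows cannot be assigned to 1 gene, so levels of these genes are uncertain and may be understated.

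The 8 libraries held between 9523128 and 32637658 counts, and members took 0.723% to 0.941% of them. Levels are given as CPM, counts per 1000000 of the TMM-scaled library size, and levels of different genes are compared per kb of coding sequence. The TRiC libraries held counts for 26298 to 27679 genes and at most 1 member was at 0, whereas the PFD libraries held counts for 15672 to 18907 genes and 7 to 12 members were at 0. The cells had 6 of 7 mesenchymal markers in every library, though COL1A2 held only 1, 18, 1 and 2 counts in the PFD libraries. Blood markers summed to at most 0.275 CPM. Of 5 epithelial markers, 3 had counts in all 8 libraries, and the list summed to 145 to 152 CPM in TRiC inputs and 365 to 376 CPM in PFD inputs. Of 12 skeletal muscle markers, 3 had counts in all 8 libraries. Their summed level was 204 to 214 CPM in TRiC inputs, 157 to 165 CPM in TRiC pulldowns, 38.1 to 53.2 CPM in PFD inputs and 54.7 to 107 CPM in PFD pulldowns.

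In total ribosomes of both lines, MYH9 and the light chains MYL12B, MYL6, MYL9 and MYL12A stood far above all other members. In TRiC inputs MYL12B, a regulatory light chain, was at 762 ± 35.6 CPM per kb (SD, n = 2) and MYH9 at 761 ± 5.92, which did not differ beyond their spread. The essential light chain MYL6 followed at 651 ± 10.6, MYL9 at 546 ± 20.1 and MYL12A at 385 ± 25 CPM per kb. Shared windows (57.3% for MYL12B, 47.5% for MYL12A, 29.1% for MYL6, 2.32% for MYH9) may understate these levels unequally, which the SD does not cover. In PFD inputs MYH9 was at 980 ± 22.3 and MYL12B at 950 ± 79.7 CPM per kb, again within their spread. MYL6 was at 440 ± 2.55, MYL12A at 429 ± 9.93 and MYL9 at 410 ± 26.4 CPM per kb, and the libraries of MYL12A and MYL9 overlapped. MYO1C, a class I motor that links membranes to actin, led the unconventional myosins at 143 ± 1.33 CPM per kb in TRiC and 141 ± 1.52 in PFD inputs.

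MYH9 alone made up 58.6% to 72.9% of the CPM of all heavy chains in the 8 libraries. MYH10 reached 51.5 ± 0.439 CPM per kb in TRiC and 27.1 ± 1.63 in PFD inputs, and MYH14 11.6 ± 0.713 and 4.72 ± 0.541. All light chains together, per kb, stood at 2.91 and 2.99 times the sum of MYH9, MYH10 and MYH14 in the TRiC inputs and at 3.03 and 3.05 times in the TRiC pulldowns. In the PFD inputs the ratio was 2.39 and 2.16, and in the PFD pulldowns 2.17 and 2.07. The 4 TRiC libraries thus lay above the 4 PFD libraries, and reads lost in shared windows of light chains may understate each ratio. The sarcomeric heavy chains were scarce, with 855 and 881 counts in TRiC inputs and 107 and 276 in PFD inputs over the 8 genes together. In pooled cells, fewer cells that express a gene and fewer ribosomes per cell cannot be told apart.

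**Figure D1:**
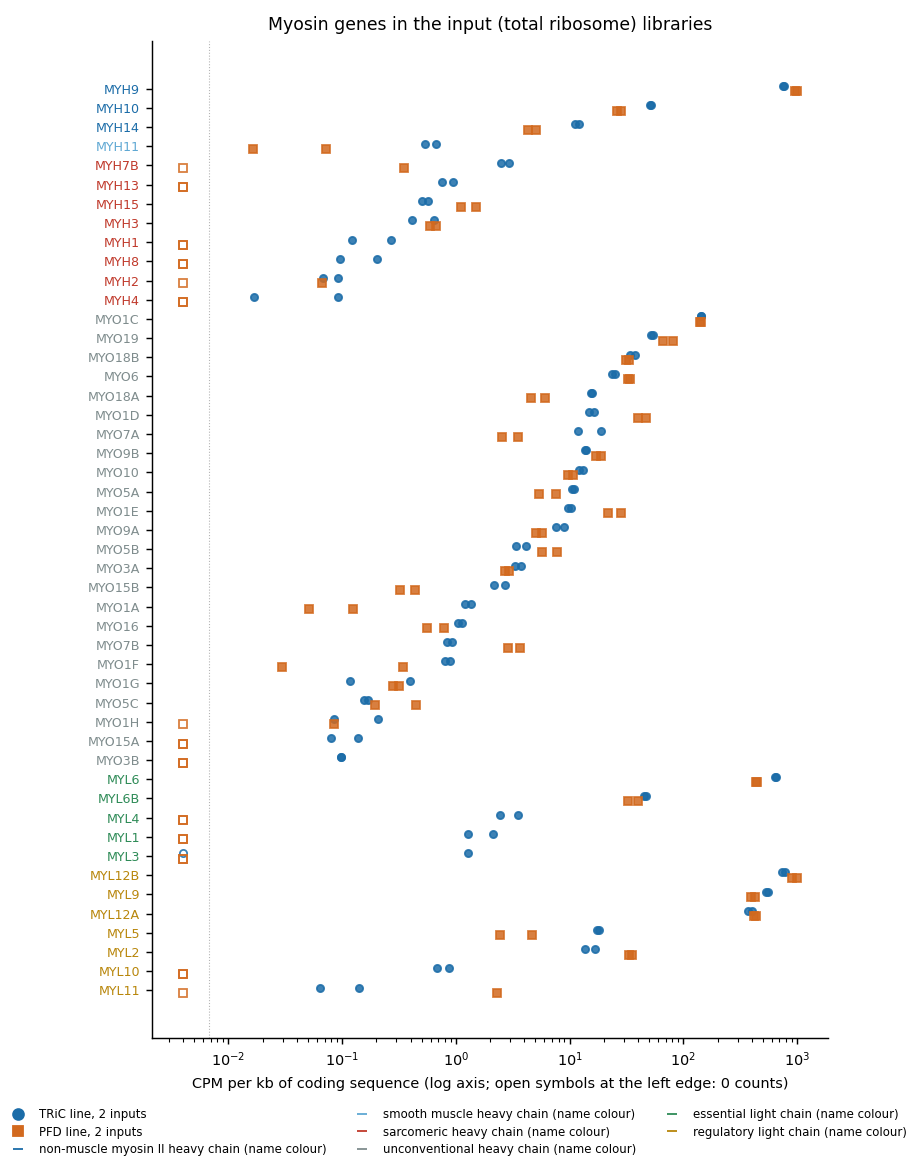
Level of each of 48 myosin genes in the 4 input libraries, in CPM per kb of coding sequence on a log axis, with a point per library and open symbols for libraries at 0 counts; name colours give the role. MYH9 and 4 light chains stand between 385 and 980 CPM per kb, and the open squares are the members at 0 in PFD inputs, MYH13 among them.

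In the TRiC pulldown the heavy chains split by role. The 3 non-muscle heavy chains lay below their inputs, MYH9 and MYH14 past the test, while 7 of 8 sarcomeric heavy chains and the smooth muscle heavy chain MYH11 were higher. By edgeR's quasi-likelihood test with Benjamini-Hochberg adjustment over all 17934 genes tested, 12 of 37 heavy chains were higher (32.4%), 3 were lower and 22 were not called, and of 12 light chains none was higher and 1 was lower. At an unadjusted p under 0.05, edgeR and DESeq2 each had 1 light chain higher and 5 lower. The share of all genes at that threshold is not given, so nothing is read from these counts. After adjustment, the background is 8.64% of all genes called higher and 10.6% called lower. The median log2 fold change was 0.33 over heavy chains, -0.19 over light chains and -0.0032 over all genes tested, and the heavy chain median was 0.16 without TRiC input replicate 2.

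Heavy chains are long and light chains short, and the TRiC fold change of all genes followed coding length. Among all 2233 protein-coding genes tested with a coding length in the range of the heavy chains, 2910 to 10590 bp, 22.3% were higher, 2.15% were lower and the median log2 fold change was 0.17. Among 1375 genes in the range of the light chains, 453 to 678 bp, 2.84% were higher, 25.5% were lower and the median was -0.22. The light chain median was close to that of genes of their length, and 8.33% of light chains were called lower. The heavy chains with a mean count under 1000 over the 8 libraries had a median of 0.85, with 9 of 21 called higher, beside 0.26 and 17.2% among genes of that length and of a mean count under 1000 in the TRiC libraries. The heavy chains with a mean count of at least 1000 had a median of 0.08, with 3 of 16 higher and 3 lower, beside 0.13, 26.5% higher and 3.21% lower among the abundant genes of that length. The part of length and of abundance in the difference between heavy and light chains was not tested.

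**Figure D2:**
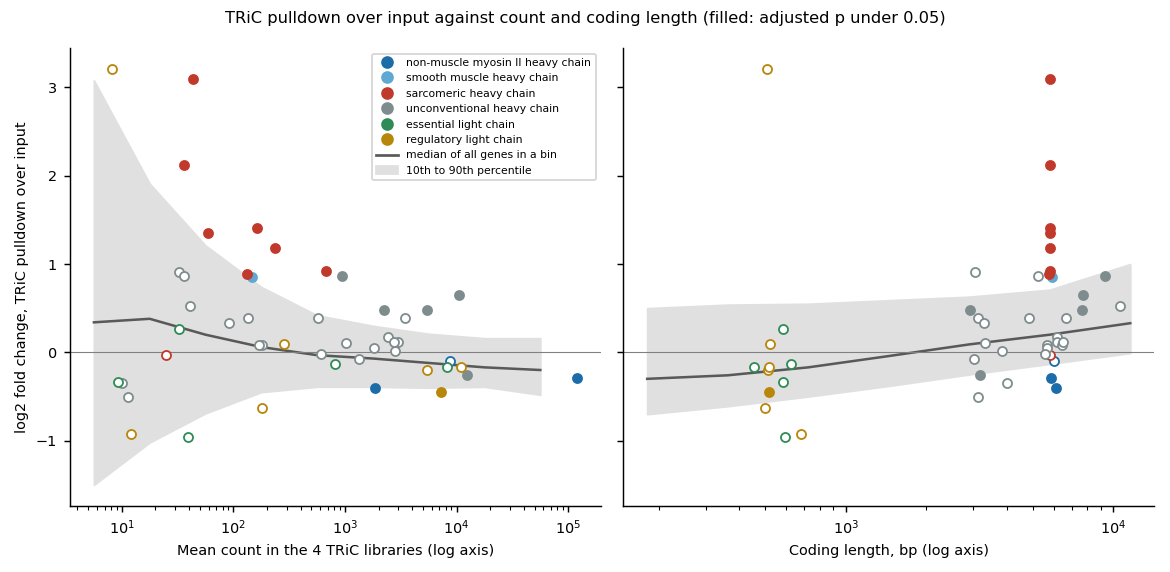
TRiC pulldown over input (log2 fold change) of 48 myosin genes against their mean count in the 4 TRiC libraries (left) and their coding length (right), both log axes; the line is the median of all genes (left) or all protein-coding genes (right) in a bin, and the band spans their 10th to 90th percentile. The bin medians fall with the count and rise with the length, and the filled red points, 7 sarcomeric heavy chains, stand at 0.89 or higher.

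Among the non-muscle heavy chains, MYH9 held 4447 and 4496 CPM in TRiC inputs and 3766 and 3556 CPM in the pulldowns. The groups did not overlap, and MYH9 fell by 0.29 on the log2 scale (SE 0.06, adjusted p = 0.00186 by edgeR). With cyclic loess scaling the change was -0.07 with an adjusted p of 0.423, so this call depended on the scaling. MYH14 held 74.2 and 68.1 CPM in inputs and 55.5 and 52.2 CPM in pulldowns and fell by 0.40 (SE 0.10, adjusted p = 0.00697). Without TRiC input replicate 1 its change was -0.33 with an adjusted p of 0.142. MYH10 had a log2 fold change of -0.10 (SE 0.07), was not called and turned to 0.025 with cyclic loess. Across members, 2 were called lower without TRiC input replicate 1 and 7 without TRiC pulldown replicate 1.

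The sarcomeric heavy chains were few in counts, and all but MYH8 were called higher in the TRiC pulldown. Beside this stand 8.64% of all genes tested and 17.2% of protein-coding genes of heavy chain length with a mean count under 1000. MYH13, the heavy chain of extraocular muscle, held 122 and 166 counts in TRiC inputs and 368 and 288 in the pulldowns, or 4.36 and 5.43 against 10.9 and 11.3 CPM. It rose by 1.18 on the log2 scale (SE 0.21, edgeR adjusted p = 0.000854). MYH4, a fast skeletal heavy chain, went from 15 and 3 to 77 and 80 counts. Its log2 fold change of 3.10 (SE 0.64, adjusted p = 0.0028) was the largest among the heavy chains, at an input level of 0.536 and 0.0981 CPM. MYH2, the heavy chain of fast oxidative fibres, went from 15 and 12 to 56 and 61 counts (2.12, SE 0.58). MYH1, another fast skeletal chain, went from 20 and 48 to 91 and 80 counts (1.35, SE 0.45). The embryonic heavy chain MYH3 went from 105 and 73 to 242 and 231 counts (1.41, SE 0.27). The perinatal heavy chain MYH8 did not move with its neighbours on chromosome 17, with 33 and 17 counts in inputs and 28 and 22 in pulldowns.

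MYH7B and MYH15, whose coding sequences are almost unique in the genome and which lie on chromosomes 20 and 3, were higher as well. MYH7B held 17.1 and 14.6 CPM in inputs and 30.1 and 29.7 CPM in pulldowns (0.92, SE 0.13, adjusted p = 0.000173). MYH15 held 3.28 and 2.91 CPM in inputs and 6.3 and 5.19 CPM in pulldowns (0.89, SE 0.27, adjusted p = 0.027). The smooth muscle heavy chain MYH11 held 3.93 and 3.17 CPM in inputs and 6.63 and 6.17 CPM in pulldowns (0.85, SE 0.25, adjusted p = 0.0251), and genes on the other strand, chiefly NDE1, cover 7.32% of its exonic sequence. The 8 sarcomeric genes together went from 31.5 and 28 CPM to 62.1 and 64.8 CPM, while the summed skeletal muscle markers, most of them TNNT1, were lower in the TRiC pulldowns than in the inputs. TTN, the giant sarcomeric protein, held 54 and 56 counts in inputs and 129 and 106 in pulldowns.

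Several of these calls rested on single libraries. MYH1 lost its call without TRiC input replicate 1 (0.90, adjusted p = 0.291) or TRiC pulldown replicate 2 (1.24, adjusted p = 0.0788). MYH2 lost it without TRiC input replicate 2 (1.90, adjusted p = 0.0781) or TRiC pulldown replicate 2 (1.85, adjusted p = 0.0854). MYH15 lost it without TRiC input replicate 1 (0.99, adjusted p = 0.0676), TRiC input replicate 2 (0.80, adjusted p = 0.156) or TRiC pulldown replicate 1 (0.74, adjusted p = 0.0893). MYH11 lost it without TRiC input replicate 2 (0.69, adjusted p = 0.199). MYH3, MYH4, MYH7B and MYH13 were called with any 1 of the 4 TRiC libraries left out. Other tools also ended some calls. DESeq2 called 9 members higher and 4 lower, and MYH1 (adjusted p = 0.117), MYH15 (adjusted p = 0.0988) and MYH11 (adjusted p = 0.0932) were no longer called. With cyclic loess MYH1 had an adjusted p of 0.0695 and MYH15 of 0.0541. In a fit of all 8 libraries, which takes in the larger spread of the PFD libraries, none of the 8 sarcomeric genes was called, and MYH13 had an adjusted p of 0.537.

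**Figure D3:**
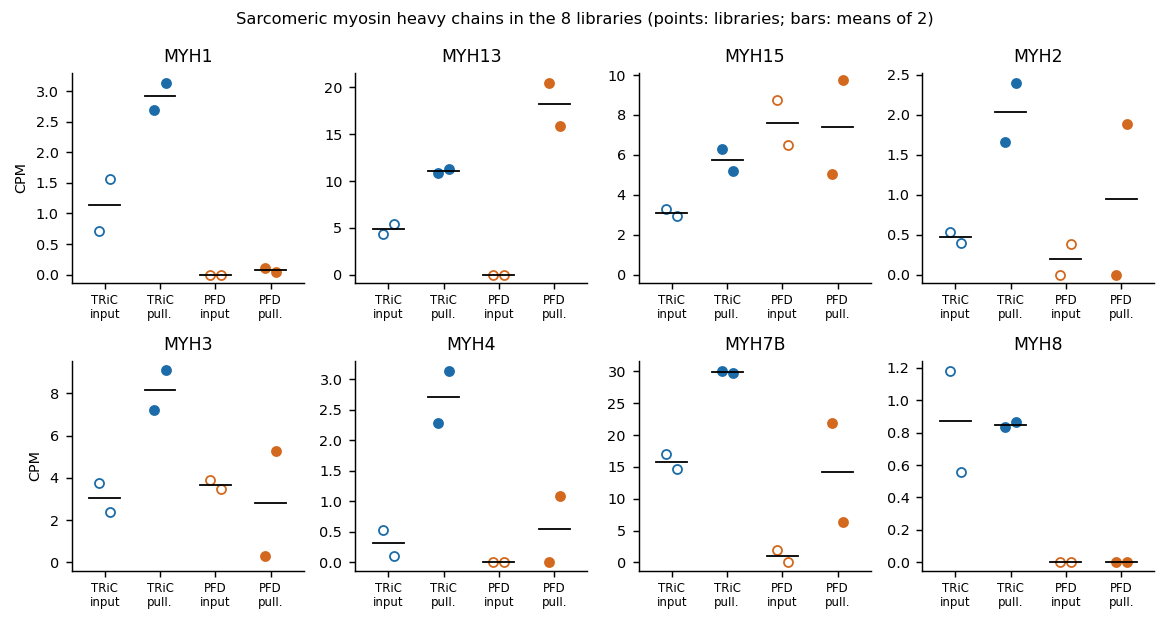
CPM of the 8 sarcomeric heavy chains in each library, with a point per library, a bar at the mean of 2 and a vertical scale of its own for each gene (blue, TRiC line; orange, PFD line; open, input; filled, pulldown). All genes but MYH8 are called higher in the TRiC pulldown, beside 8.64% of all genes tested. MYH13 is at 0 in both PFD inputs and at 20.5 and 15.9 CPM in the PFD pulldowns.

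Of the 25 unconventional heavy chains, 4 were higher in the TRiC pulldown, 1 was lower and 20 were not called, with a median log2 fold change of 0.12. MYO18B, a myosin of striated muscle that acts in sarcomere assembly, held 291 and 262 CPM in inputs and 440 and 428 CPM in pulldowns. It rose by 0.65 (95% confidence interval 0.50 to 0.80, adjusted p = 1.61e-05 by edgeR) and was the only 1 of the 16 members called in this comparison whose call held under every alternative run. MYO19, which anchors mitochondria to actin, went from 158 and 152 CPM to 213 and 221 CPM (0.48, SE 0.08, adjusted p = 0.000371), and 12.7% of its exonic sequence is covered by genes on the other strand. MYO15B went from 25.3 and 19.9 CPM to 43.6 and 39 CPM (0.87, SE 0.13, adjusted p = 0.000217). MYO9A, a motor with a RhoGAP domain, went from 57.7 and 68.1 CPM to 81.8 and 94.4 CPM (0.48, SE 0.10, adjusted p = 0.00346). Its change was 0.37 with an adjusted p of 0.074 without TRiC input replicate 1.

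MYO1C was the 1 unconventional myosin that was lower, at 459 and 453 CPM in inputs and 394 and 369 CPM in pulldowns (-0.26, SE 0.07, adjusted p = 0.0136). This call was lost without TRiC input replicate 1 (-0.24, adjusted p = 0.166) or replicate 2 (-0.28, adjusted p = 0.0978), with library totals in place of TMM (-0.21, adjusted p = 0.0936) and with cyclic loess (-0.12, adjusted p = 0.202). Its relatives MYO1D (-0.08, SE 0.11) and MYO1E (0.11, SE 0.12) were not called. The cargo motors MYO5A (0.044, SE 0.09) and MYO6 (0.019, SE 0.09), which run to opposite ends of actin filaments, the filopodial motor MYO10 (0.17, SE 0.09), the RhoGAP motor MYO9B (0.12, SE 0.09) and MYO18A (0.12, SE 0.10) were not called either. The hair cell motor MYO7A missed the threshold (0.39, SE 0.15, adjusted p = 0.0764), and whether it was called depended on the setting. It was called higher with a replicate block (adjusted p = 0.00892), library totals (adjusted p = 0.0237), cyclic loess (adjusted p = 0.0216), no filter (adjusted p = 0.000626) and at least 100 counts in every library (adjusted p = 0.00682). It was also called without TRiC input replicate 1 (0.77, adjusted p = 1.43e-06) or TRiC pulldown replicate 1 (0.53, adjusted p = 2.05e-07), but not with DESeq2 or in the fit of all 8 libraries.

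Among the light chains, MYL9, the regulatory light chain of smooth muscle and non-muscle myosin II, held 274 and 289 CPM in TRiC inputs and 209 and 204 CPM in the pulldowns. It fell by 0.45 (SE 0.07, edgeR adjusted p = 0.000484) and was called with any 1 library left out. The other abundant light chains had changes of the same sign without passing the test. These were -0.17 (SE 0.07, adjusted p = 0.107) for MYL6, -0.20 (SE 0.08, adjusted p = 0.0767) for MYL12A and -0.17 (SE 0.07, adjusted p = 0.104) for MYL12B. Genes on the other strand cover 16.3% of the exonic sequence of MYL6. The scarcer MYL2, a regulatory light chain of heart and slow muscle, went from 233 and 207 counts to 162 and 125 (-0.63, SE 0.23, adjusted p = 0.0612). With cyclic loess 2 light chains were called lower. Among the 4 light chains with a mean count of at least 1000 the median was -0.19, beside -0.30 for the 449 abundant genes of their length, of which 56.6% were called lower. The muscle light chains MYL1, MYL3, MYL4, MYL10 and MYL11 held at most 58 counts in any library and were not called.

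**Figure D4:**
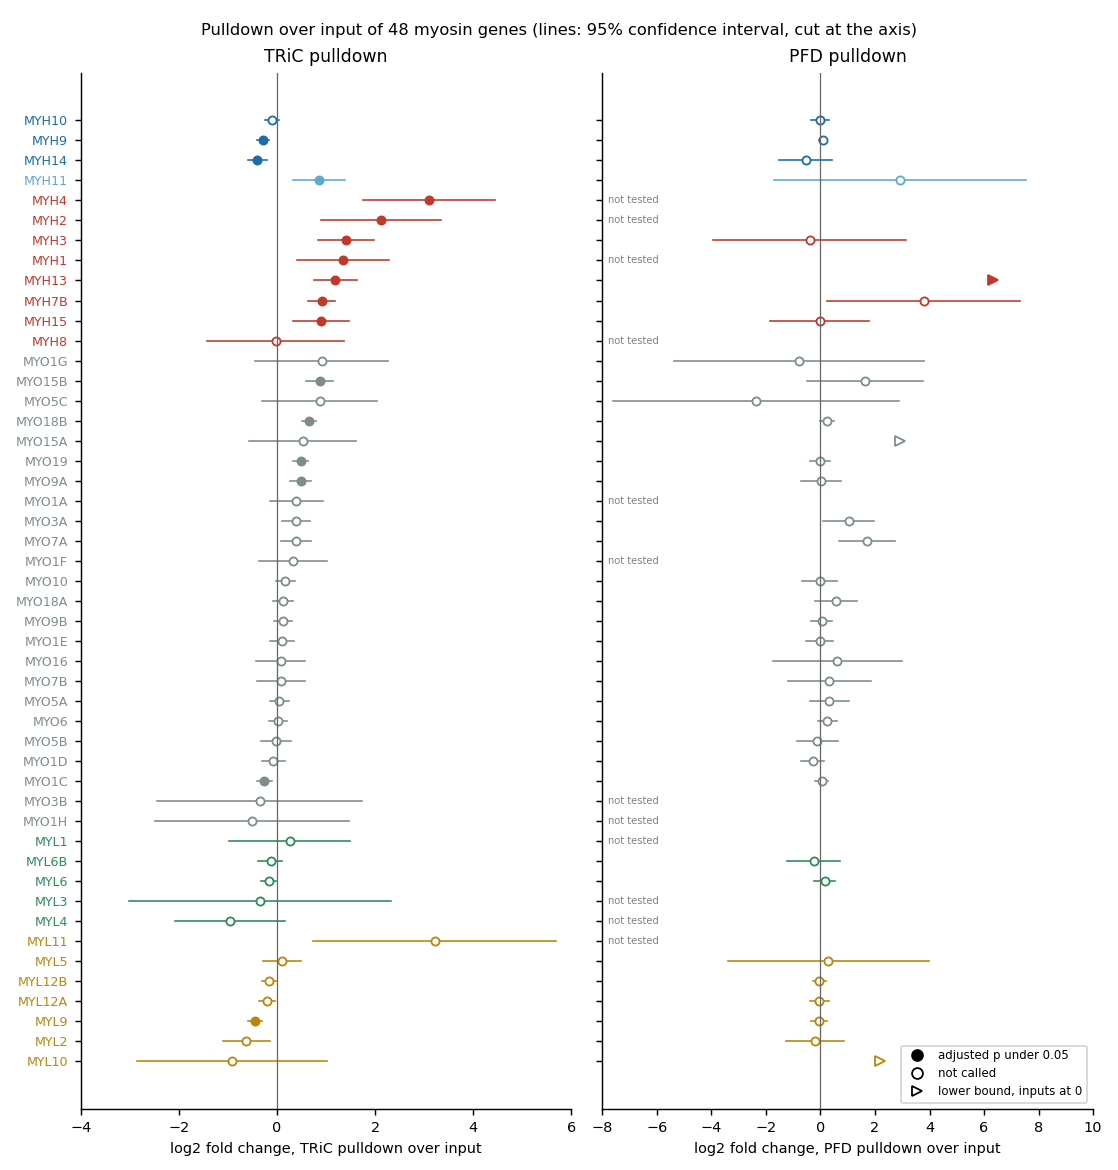
Log2 fold change of pulldown over input for 48 myosin genes in the TRiC (left) and PFD (right) lines. Bars are 95% confidence intervals and filled symbols have an adjusted p under 0.05. Triangles are lower bounds of the pulldown mean for genes at 0 counts in both PFD inputs. In the TRiC panel 12 heavy chains are called higher, and in the PFD panel MYH13, singled out beforehand for its 0 counts in PFD inputs, is the 1 filled symbol.

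MYH13 was singled out among the members because it has no counts in the PFD inputs, so its values in PFD libraries are a description and no independent test. No count fell on it in either PFD input (0 and 0), against 195 and 438 counts in the pulldowns, or 20.5 and 15.9 CPM. Against a floor of 3 counts in each input library, the mean of its pulldowns was at least 81-fold higher. Of the 49 members, 36 passed the filter on low counts, among them 29 heavy and 7 light chains. MYH13 was the 1 member that edgeR called higher, from which nothing is read, and none was lower. At an unadjusted p under 0.05 edgeR, DESeq2 and limma after cyclic loess likewise had no member lower, and they had 5, 7 and 5 members higher. These include MYH13 and have no share of all genes at that threshold beside them, so nothing is read from them. Of all 14111 genes tested, 0.0496% were called higher and 0.191% lower. A member had to hold counts in some group to pass, and MYH13 and MYO15A passed through the pulldown alone.

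The long noncoding gene on the other strand of MYH13 (ENSG00000264067, 1.72% of MYH13 exon bases) held 38 and 35 counts in PFD inputs and 20 and 30 in PFD pulldowns, against 195 and 438 of MYH13 in the latter. The sarcomeric genes that share windows with MYH13 held varied counts in the PFD libraries. MYH8 had 0 counts in all 4 PFD libraries, MYH1 had 0 and 0 in inputs and 1 and 1 in pulldowns, and MYH4 had 0 and 0 in inputs and 0 and 30 in pulldowns. MYH2 had 0 and 4 counts in inputs and 0 and 52 in pulldowns, and MYH3 73 and 36 in inputs and 3 and 146 in pulldowns. MYH7B, which shares 3 windows with MYH13, had 38 and 0 in inputs and 208 and 176 in pulldowns. Muscle marker genes varied too. TNNT1, a slow skeletal troponin, had 970 and 385 counts in PFD inputs and 563 and 1432 in pulldowns. CKM, MB, TNNI2 and TNNT3 had 0 counts in all 4, MYOG had 50 in PFD pulldown replicate 2 alone, and TTN had 13 and 7 in inputs and 387 and 20 in pulldowns. The part of depth and of these muscle genes in the MYH13 value was not tested.

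Some other members, most of them scarce, were higher in both PFD pulldowns without passing the test. Those given here were picked after their values were seen and are not all of them, so these values are a description. Others higher in both pulldowns include MYO15B, MYH11, MYO18A and MYO3A, the last at 14.1 and 13.2 CPM in inputs and 32.2 and 23.4 CPM in pulldowns. No share of all genes that separate in this way is given. MYH7B went from 38 and 0 counts to 208 and 176, and its adjusted p was 0.719 (log2 fold change 3.78, SE 1.53). MYO15A, a motor of hair cell stereocilia, was at 0 counts in the 2 inputs against 24 and 23 in the pulldowns (2.52 and 0.833 CPM). The mean of its pulldowns was at least 7.48-fold above the floor of 3 counts per input, and its adjusted p was 0.719 by edgeR (log2 fold change 7.84, SE 3.02). The regulatory light chain MYL10 was at 0 counts in the inputs against 15 and 13 in the pulldowns (1.58 and 0.471 CPM). Their mean was at least 4.56-fold above the floor, and MYL10 did not pass the filter. MYO7A, whose loss causes deafness, went from 16.9 and 23.2 CPM to 89.5 and 39.1 CPM (1.71, SE 0.44, adjusted p = 0.528). DESeq2 called MYO7A higher with an adjusted p of 0.00208. Without PFD pulldown replicate 2, edgeR called 7 members higher, MYH7B and MYO7A among them, and 1 lower.

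Among the members with a mean count of at least 1000, none passed the test with PFD. MYH9 held 5670 and 5856 CPM in PFD inputs and 6025 and 6185 CPM in the pulldowns (0.10, 95% confidence interval -0.037 to 0.23). MYL9 held 221 and 202 CPM in inputs and 200 and 202 CPM in pulldowns (-0.06, 95% confidence interval -0.36 to 0.24). MYO18B, the firmest TRiC call, held 256 and 239 CPM in inputs and 291 and 287 CPM in pulldowns (0.24, 95% confidence interval -0.033 to 0.51). The other abundant members, MYO7A aside, ranged from -0.54 (MYH14) to 0.57 (MYO18A). Over tested members the median was 0.048 for heavy and -0.041 for light chains, beside -0.00048 for all genes. The light chain median was 0.044 without PFD pulldown replicate 2, and that of heavy chains 0.21 without PFD input replicate 1. The PFD libraries spread more, with a common dispersion of 0.331 against 0.0153 for the TRiC libraries. In simulated counts with that spread, edgeR recovered 51 of 200 2-fold changes for PFD and 183 of 200 for TRiC. A 2-fold change of a member could thus be missed in the PFD comparison unless its interval excludes one. The intervals given above for MYH9, MYL9 and MYO18B do exclude it.

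Whether a member was enriched differently by the 2 chaperones was tested as the interaction in a fit of all 8 libraries. None of the 49 members passed in edgeR, where 0.0212% of all 18855 genes were called higher with TRiC and 0.0159% lower. At an unadjusted p under 0.05, edgeR had 3 members higher and 7 lower, MYH13 among the latter. These counts are a description, without a share of all genes at that threshold. After adjustment DESeq2 called MYO18B higher and MYH9 and MYL9 lower with TRiC, without a share of all genes it called. It also called MYH13 and MYO15A lower, both of which were at 0 counts in the PFD inputs. The calls of MYH13 and MYO15A rest on those 0 counts and are a description. How many members edgeR called changed with the library left out, and no share of all genes is given for those fits. Without PFD pulldown replicate 2, the difference was -0.34 for MYH9 and 0.44 for MYO18B. In simulated counts edgeR recovered 7 of 200 2-fold differences, so the test had little power. MYH13 had a TRiC minus PFD log2 difference of -10.52, a fitted value that rests on the 0 counts of the PFD inputs for which it was singled out and is a description. MYH9 had a difference of -0.37 (95% confidence interval -0.58 to -0.17, adjusted p = 0.175), MYL9 -0.38 (SE 0.12, adjusted p = 0.245), MYO18B 0.43 (SE 0.12, adjusted p = 0.21) and MYO19 0.53 (SE 0.16, adjusted p = 0.225).

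The inputs of the 2 lines differed in more members than either pulldown did from its input. Of 43 members tested, 12 were higher and 20 lower in PFD than in TRiC inputs, beside 17.7% and 22.6% of all 16341 genes tested. The 20 include members at 0 counts in both PFD inputs, which could only be called lower. Line, clone and library preparation cannot be told apart in this comparison. The median of all genes was -0.11 on the log2 scale and 0.034 after cyclic loess. MYH9 was higher in PFD inputs by 0.37 (SE 0.04, adjusted p = 0.00186), while MYH10 fell by 0.92 (SE 0.07, adjusted p = 0.0006) and MYH14 fell by 1.31 (SE 0.14, adjusted p = 0.00155) in PFD against TRiC inputs. The non-muscle heavy chains thus moved in opposite directions between the lines.

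Class I motors differed among themselves too. MYO1D held 44.4 and 49.1 CPM in TRiC inputs and 143 and 120 CPM in PFD inputs (1.50, SE 0.12, adjusted p = 0.000721). MYO1E held 32.2 and 34.3 against 93.5 and 72.3 CPM (1.32, SE 0.15). MYO1C did not differ past the test (-0.025, SE 0.05), and MYO1A, the brush border motor, was lower in PFD inputs at 118 and 115 against 3 and 4 counts. Other members higher in PFD inputs were MYO7B (1.89, SE 0.25), MYH15 (1.30, SE 0.40), MYO5B (0.83, SE 0.20), MYO19 (0.46, SE 0.11), MYO6 (0.43, SE 0.08), MYO9B (0.38, SE 0.09), and the light chains MYL2 (1.17, SE 0.24) and MYL12B (0.32, SE 0.08). Lower were MYO7A (-2.37, SE 0.28), MYO15B (-2.66, SE 0.29), MYO18A (-1.54, SE 0.15), MYO5A (-0.71, SE 0.18), MYO9A (-0.62, SE 0.14), MYH7B (-3.79, SE 0.99), MYH11 (-3.64, SE 0.87), MYL5 (-2.29, SE 0.46), MYL6 (-0.56, SE 0.06) and MYL9 (-0.41, SE 0.07).

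Members at 0 counts in both PFD inputs were compared by bounds, which set the mean of the TRiC inputs against the floor of 3 counts per library. MYH13, singled out for these 0 counts, was at least 21.8-fold lower in PFD than in TRiC inputs, which is a description. MYL4, an essential light chain of atrial and embryonic muscle, was at least 7.81-fold lower. The bound was 5.15-fold for MYO15A, 5.08-fold for MYH1, 4.44-fold for the fast skeletal light chain MYL1, 3.86-fold for MYH8 and 2.34-fold for MYL10. By edgeR all of these were called lower. They passed the filter through the TRiC inputs alone and could only be called lower, so their calls are a description. MYO3B had 11 and 12 counts in TRiC inputs, a bound of 1.75-fold, and was not tested. Of the 32 calls between inputs, 17 were lost when 1 or the other TRiC input was left out. These were MYH1, MYH8, MYH11, MYH15, MYL1, MYL2, MYL4, MYL5, MYL10, MYL12B, MYO1A, MYO5A, MYO5B, MYO6, MYO9A, MYO9B and MYO15A. Without TRiC input replicate 1, 7 members were called higher and 11 lower, and without TRiC input replicate 2, 7 and 9. Of the 32 calls, 17 were also lost under an alternative other than leaving out a library. Some of these are not in the list above. They include MYH7B (DESeq2 adjusted p = 0.185), MYO19 (cyclic loess adjusted p = 0.0659) and MYO7B (adjusted p = 0.0752 by edgeR on all 8 libraries). The difference for MYL10 turned to 0.19 after cyclic loess. The muscle marker lists differed between the inputs as well, and not all in 1 direction. The 12 skeletal muscle markers summed to 204 to 214 CPM in TRiC and 38.1 to 53.2 CPM in PFD inputs, and the 5 cardiac ones to 9.32 to 9.82 against 1.45 to 1.59 CPM. The 5 smooth muscle markers summed higher in PFD inputs, at 882 to 962 against 466 to 484 CPM, most of it TAGLN and SMTN. Within this list ACTA2 went the other way, with 2.13 and 2.12 CPM in PFD against 3.14 and 3.47 CPM in TRiC inputs. LMOD1 did so as well, with 0 and 0 against 40 and 44 counts. The smooth muscle heavy chain MYH11 was also lower in PFD inputs. Mesenchymal markers also summed higher in PFD inputs, at 20505 to 21903 against 9789 to 10123 CPM. Within that list FN1 held 12906 and 11996 CPM in PFD against 1760 and 1689 CPM in TRiC inputs. SPARC was lower in PFD inputs, at 2274 and 2194 against 3095 and 3112 CPM. Epithelial markers summed higher in PFD inputs too, at 365 to 376 against 145 to 152 CPM, most of it KRT8 and KRT18. The part of these cell type markers in the differences was not tested.

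Of 29 regulators and chaperones of actomyosin, 26 were tested in the TRiC comparison, with 7 higher, 5 lower and a median log2 fold change of 0.19, beside 8.64% and 10.6% of all genes called higher and lower. DESeq2 called 10 of them higher and cyclic loess 11, without a share of all genes called by these tools. The TRiC fold change of all genes followed coding length, and the part of length in these calls was not tested. By edgeR, higher were the kinases CDC42BPA (0.46, SE 0.09) and CDC42BPB (0.34, SE 0.08), which phosphorylate myosin light chains or their phosphatase, the myosin phosphatase subunits PPP1R12B (0.98, SE 0.17) and PPP1R12C (0.50, SE 0.12), and the actomyosin binding proteins MPRIP (0.35, SE 0.09), SVIL (0.35, SE 0.08) and LIMCH1 (0.27, SE 0.09). Among the lower were the calmodulin gene CALM3 (-0.39, SE 0.08), whose product serves as a light chain of unconventional myosins, S100A4 (-0.51, SE 0.08), which binds MYH9 filaments, the phosphatase inhibitor PPP1R14B (-0.83, SE 0.12) and the GTPase RHOA (-0.29, SE 0.07). The myosin chaperone UNC45A held 4378 and 4608 counts in inputs and 4674 and 3261 in pulldowns and was not called (adjusted p = 0.0898), and its muscle relative UNC45B held at most 6 counts. In the PFD pulldown none of 24 tested was called by edgeR, and DESeq2 called 1 lower. At an unadjusted p under 0.05, for which no share of all genes is given, edgeR had 1 higher and 1 lower. Between the inputs, 4 of the 26 tested were higher and 9 lower in the PFD line, beside 17.7% and 22.6% of all genes.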

How the data were processed

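Ribosome-protected fragments were counted per gene in 8 libraries of U-2 OS cells, with 2 replicates of input and 2 of pulldown in the TRiC line and likewise in the PFD line. The authors deposited raw counts per gene, made by removing duplicates with UMI-tools, discarding noncoding RNA with Bowtie2 2.4.2 and aligning to hg38 with STAR 2.7.10a, with at most 2 mismatches and unique alignments. The annotation release and the strand column are not given in the sources used here, so reads of genes that overlap on opposite strands may not be told apart. Reads that match several places are lost, which lowers genes with near copies. The gene totals do not show where on a transcript RPFs lie.

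Samples were grouped by their labels. From the deposited counts, edgeR 4.0.16 in R 4.3.3 (TMM, filterByExpr, quasi-likelihood test, no replicate block) was fitted on the 4 libraries of a line for pulldown against input, on the 4 inputs for the lines and on all 8 for the interaction. P-values were adjusted by Benjamini-Hochberg over all genes tested, with a threshold of 0.05. The labels number the replicates, and the study's methods call them biological. Symbols, positions and coding lengths came from GENCODE 44, which held 60463 of the 60664 identifiers. Bounds set the mean CPM of the higher group against a floor of 3 counts per library. They cover counting error only, and a single library can lie below them. Totals ran from 9523128 to 32637658 counts.

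The alternatives tried were DESeq2 1.42.0, cyclic loess with limma 3.58.1, scaling by library totals, a replicate block, no filter, a filter of at least 100 counts in every library, a joint fit of the 8 libraries, and fits that each left out 1 library. Full values were given for members called in a comparison, those averaging at least 1000 counts, and MYH13, and others by counts and ranges. Some of the others, and ENSG00000264067, are named with counts as neighbours or copies of MYH13 or for their high PFD pulldown counts, the latter chosen after their values were seen. The fits were tested on simulated data with 200 genes changed 2-fold, drawn from genes above a minimum mean count, so recovery of scarcer genes was not measured. Counts cover all genes of a list, but 1 member and 1 regulator are not reported here by name. The members, gene lists and marker lists were chosen with earlier results of these data known.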

Additional observations from a re-analysis of the deposited data

How the results depend on the processing

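Of the 16 members called in the TRiC comparison, 15 lost the call under at least 1 alternative other than leaving out a library, mostly in the fit of all 8 libraries, where 1 member was called higher and 0 lower. With a replicate block 8 members were called lower with TRiC and 3 higher with PFD, where MYH7B and MYO7A joined MYH13. The study's methods took input and pulldown from ribosome pellets, without saying whether equal replicate numbers share a pellet. Differences between replicates correlated across genes at 0.0799 (TRiC) and -0.00411 (PFD) between input and pulldown. Correlations this weak cannot decide whether the libraries are paired. DESeq2 and the fit without a filter each called 2 members higher with PFD, and at least 100 counts in every library left 0. For the difference between enrichments DESeq2 called 1 higher and 4 lower, and no filter 4 lower. For the inputs the fit of all 8 libraries called 7 higher and at least 100 counts in every library left 10 lower. The TRiC median of heavy chains was 0.08 over members with at least 100 counts in every library.

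With a library left out, members called lower with TRiC ranged from 2 to 7, members higher with PFD from 1 to 7 and lower from 0 to 1, members with a higher difference from 0 to 6 and a lower one from 0 to 8, and members higher between inputs from 7 to 13 and lower from 9 to 24. The share of all genes called is not given for these fits, so these counts are a description of the members alone. The heavy chain median ranged from 0.16 to 0.40 (TRiC) and from 0.09 to 0.21 (PFD), and the light chain median from -0.11 to 0.044 (PFD).

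Values that turned in sign belonged, MYL10 aside, to members not called in that comparison. They were MYH10 with cyclic loess for TRiC (0.025) and DESeq2 for PFD (0.0083), MYO9A for PFD with a replicate block (-0.0087), library totals (-0.019) and all 8 libraries (-0.0049), the differences of MYH2 (0.26) and MYH4 (0.49) with cyclic loess, and MYL10 between inputs with cyclic loess (0.19). With a library left out, TRiC values ranged from -0.05 to 0.27 (MYO18A), -0.20 to 0.041 (MYO1D), -0.0097 to 0.22 (MYO1E) and -0.043 to 0.08 (MYO6). PFD values ranged from -0.09 to 0.07 (MYH10), -0.54 to 0.32 (MYH15), -3.45 to 0.49 (MYH3), -0.23 to 0.12 (MYL12A), -0.12 to 0.023 (MYL12B), -0.09 to 0.34 (MYL6), -0.40 to 0.25 (MYO10), -0.20 to 0.12 (MYO19), -0.048 to 0.12 (MYO1C), -0.20 to 0.14 (MYO1E), -0.33 to 0.30 (MYO9A) and -0.06 to 0.14 (MYO9B). Differences ranged from -0.25 to 0.71 (MYH14), -5.49 to 7.05 (MYH2), -4.66 to 3.10 (MYH4) and -1.31 to 0.42 (MYO15B). The cause of these changes was not tested.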
